A study of Mus musculus with 4 samples.

Results

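The 10 genes described here are the vascular endothelial growth factor (VEGF) ligands Vegfa, Vegfb, Vegfc, Vegfd and Pgf, the receptors Kdr, Flt1 and Flt4, and the co-receptors Nrp1 and Nrp2. They were chosen by name, and all 10 were found by symbol among the 32285 genes of each deposited matrix. Single-cell RNA sequencing (scRNA-seq) had been performed on the stromal vascular fraction (SVF), the cells left when adipocytes are removed, of mouse brown adipose tissue (BAT). The 4 groups were C57BL6/J WT animals (10 weeks of age), db/db animals at 2 ages, 8 weeks and 16 weeks (written db/db 8w and db/db 16w in the plots), and animals on a high-fat diet (HFD). The db/db mice carry a leptin receptor mutation and the labels list their strain as C57BL6/J as well. The HFD library is labelled with an age of 10 weeks, whereas the study's methods start that diet at 10 weeks, so the age of those mice was not settled. All mice were described as male, and each library was a pool of SVF from 3 mice, hence no group had a replicate and no difference between groups was tested. Intervals given below are 95% intervals for counting error only, and the 3 comparisons with WT share the same WT library.

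VEGF ligands are secreted proteins that bind receptor tyrosine kinases on blood and lymphatic endothelium. VEGF-A signals mainly through VEGFR2, the product of Kdr, while VEGFR1, the product of Flt1, binds VEGF-A, VEGF-B and placental growth factor and acts in part as a decoy. VEGF-C and VEGF-D act through VEGFR3, encoded by Flt4, which is best known from lymphatic vessels. Neuropilins bind both VEGFs and class 3 semaphorins. BAT is a densely vascularized tissue, and its vessels carry the oxygen and fuel used in thermogenesis.

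The libraries held 6517 to 18306 barcodes, of which 5462 to 11648 passed limits on genes, unique molecular identifiers (UMIs) and mitochondrial reads, with medians of 2733 to 6218 UMIs per cell. The share of barcodes that passed was 71.5% in WT, 63.6% in 8-week db/db, 89.5% in 16-week db/db and 31.3% in HFD. Median mitochondrial shares of the kept cells were 4.29%, 5.94%, 0.799% and 10.5% in the same order. Any 2 libraries shared 16 to 97 barcodes. Cells were assigned to a lineage when its marker genes clearly outweighed those of every other lineage, and 81.5% to 93.8% of cells could be assigned. Stromal cells numbered 4213 in WT, 5905 in 8-week db/db, 1155 in 16-week db/db and 1531 in HFD, and macrophages numbered 1288, 3224, 2433 and 1753. Endothelial cells numbered 18, 79, 1255 and 1199, so that WT endothelium fell under the minimum of 50 cells and is described by UMIs alone. In the summed cells of every library, 5 of 5 stromal, 11 of 11 macrophage and 9 of 9 endothelial markers were detected. Cells were assigned by these same markers, so their detection is no independent check of the lineage names. The library labelled 16-week db/db stood apart: Xist reached 207 CPM there against at most 0.688 elsewhere, and Y-linked genes summed to 17.7 CPM against 164 to 188, although the mice were described as male. RNA of 5 brown adipocyte genes summed to 126 CPM in the HFD library and to 6.73 to 9.81 CPM in the others. With 1 library per group, no value of a group can be given without that library.

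Levels are given as CPM, the UMIs of a gene per 1000000 UMIs of the cells summed. A 3-prime tag yields about 1 UMI per captured transcript, so CPM needed no division by gene length when genes were compared. On this scale Vegfd was mainly a stromal transcript, and Vegfa and Vegfb were mainly stromal and macrophage transcripts. Vegfc and Pgf were stromal or endothelial depending on the library. Of the 3 lineages, endothelium had the highest levels of Kdr, Flt1 and Flt4, and Nrp1 and Nrp2 were found in all 3. By share of UMIs, endothelium held 43.4% and 28.8% of Kdr in WT and 8-week db/db, against 44.1% and 37.4% in stroma.

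**Figure D1:**
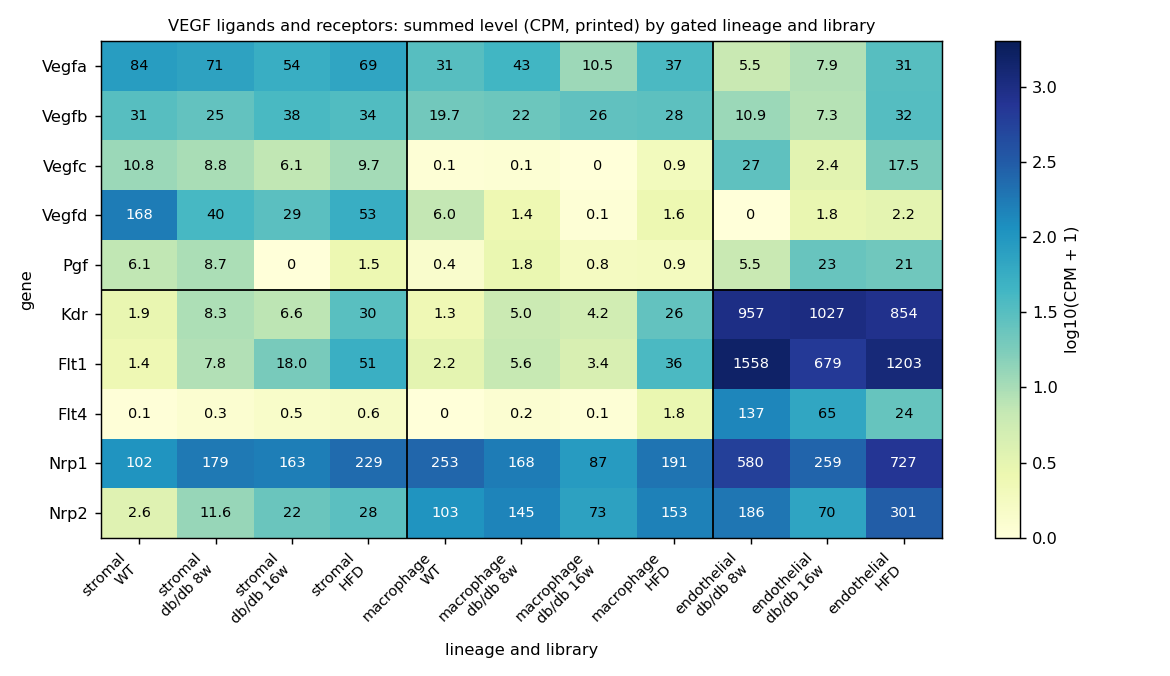
Summed level (CPM, printed in each cell, colour on a log10 scale after adding 1) of the 10 genes (rows) in stromal cells, macrophages and endothelial cells of each library (columns), without WT endothelium (18 cells). Vegfd was highest in WT stroma at 168 CPM, Kdr and Flt1 were highest in endothelium, and Nrp1 was at least 87.4 CPM in all 11 columns.

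Among ligands over 10 CPM in WT stroma, Vegfd differed most between WT and the obese groups. Vegfd, a ligand of VEGFR3, lies at chrX:164373378-164402650 on the plus strand (GRCm38, ENSMUSG00000031380). Vegfa, the main ligand of VEGFR2, lies at chr17:46016993-46032369 on the minus strand (ENSMUSG00000023951). Upstream sequences of both, from RefSeq on GRCm38.p6, are printed because these ligands took most of the stromal VEGF UMIs and were in a different order in WT than in the obese groups. They run 5′ to 3′ on the gene's strand and stop before the annotated gene, at chrX:164373272-164373377 on the plus strand for Vegfd and at chr17:46032378-46032627 on the minus strand for Vegfa. Capitals mark ACGTG (the core of the hypoxia response element), GGAAG (the core of ETS factor sites) or GGGCGG (the GC box), searched on both strands.
Vegfd: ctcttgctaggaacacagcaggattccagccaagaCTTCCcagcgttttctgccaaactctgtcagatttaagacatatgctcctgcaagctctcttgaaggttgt
Vegfa: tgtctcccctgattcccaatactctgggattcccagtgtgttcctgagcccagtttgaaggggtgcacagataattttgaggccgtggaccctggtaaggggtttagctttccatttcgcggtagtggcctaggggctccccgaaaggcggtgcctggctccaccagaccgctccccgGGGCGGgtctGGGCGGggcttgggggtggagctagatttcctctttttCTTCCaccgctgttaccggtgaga
The Vegfd window was trimmed to 106 bases, as its other 144 lay inside the annotated gene, whereas Vegfa kept 250. Neither printed sequence held ACGTG, which was present in 16.6% of 32851 RefSeq promoter windows. A second RefSeq promoter of Vegfa, not printed, held each of the 3 motifs 1 time. GGAAG occurred once in each printed sequence (64.1% of all windows held it), and GGGCGG occurred 2 times upstream of Vegfa and 0 times upstream of Vegfd (32.7% of all windows, which are longer than the trimmed one). These windows say nothing of sequence farther upstream or within the genes.

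In stromal cells, Vegfd measured 168 CPM (163 to 172) in WT, 39.6 (37.2 to 42.0) in 8-week db/db, 29.3 (24.5 to 34.9) in 16-week db/db and 52.8 (48.0 to 57.9) in HFD, from 5802, 1079, 129 and 445 UMIs. No interval of an obese group reached that of WT. The corresponding folds were 4.24-fold lower in 8-week db/db (log2 ratio -2.08, interval -2.18 to -1.99), 5.72-fold lower in 16-week db/db (-2.52, -2.78 to -2.26) and 3.18-fold lower in HFD (-1.67, -1.81 to -1.53). After every cell had been thinned to 1000 UMIs, the stromal cells with a Vegfd UMI made up 14.9% in WT and 3.78%, 3.14% and 4.84% in 8-week db/db, 16-week db/db and HFD (53.5%, 13.6%, 9.70% and 21.8% before thinning, at median depths of 7097, 3612, 2850.0 and 5073 UMIs). Macrophages, taken as a lineage that should lack Vegfd, gave 0.789%, 0.201%, 0% and 0.171% after thinning (median depths 5384, 4882, 5887 and 5839 UMIs). In summed level, macrophage Vegfd was 3.59%, 3.64%, 0.377% and 2.97% of stromal Vegfd, and the stromal marker list stood at 2.40%, 1.52%, 0.0791% and 1.26% of its stromal level in those macrophages. The markers also set the gates, which kept that list low in macrophages, whereas Vegfd was not in the gates. Vegfd UMIs thus came almost wholly from stroma, which held 97.9%, 91.9%, 93.5% and 84.0% of them.

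The make-up of the stroma differed between libraries at the same time. Cells gated as progenitors on Pi16, Dpp4, Anxa3, Cd55 and Emilin2 were 59.8% of stromal cells in WT, 25.0% in 8-week db/db, 2.25% in 16-week db/db and 9.80% in HFD. Cells gated as preadipocytes on Col15a1, Col4a1, Col4a2, Ggt5, Sparcl1 and Icam1 were 14.1%, 50.6%, 94.9% and 85.5%. Within WT, Vegfd was lower in preadipocytes (71.3 CPM) than in progenitors (195 CPM), a log2 ratio of -1.45. Within each gate, however, Vegfd was also below WT. Progenitors measured 60.3 CPM in 8-week db/db (log2 ratio -1.69, -1.85 to -1.55) and 86.8 in HFD (-1.17, -1.57 to -0.79), while 16-week db/db had only 26 progenitors and is not given. Preadipocytes measured 30.2 CPM in 8-week db/db (-1.24), 28.7 in 16-week db/db (-1.31) and 49.7 in HFD (-0.52, -0.74 to -0.30). When the subsets were weighted by the shares of UMIs they held in WT, the ratio was -1.75 in 8-week db/db (50.0 CPM) and -1.22 in HFD (72.2 CPM).

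Vegfa was more even across stroma than Vegfd. It measured 83.5 CPM (80.4 to 86.6) in WT, 71.3 (68.2 to 74.6) in 8-week db/db, 53.9 (47.3 to 61.2) in 16-week db/db and 68.6 (63.2 to 74.5) in HFD, for log2 ratios of -0.23, -0.63 and -0.28. All obese groups lay below WT and outside its interval, but none by 2-fold. Progenitors and preadipocytes of WT differed little, at 76.7 and 82.7 CPM. The 33 WT cells gated as activated stroma on Has1, Ptx3 and Tnfaip6 held 110.3 CPM, and the 23 of 8-week db/db held 167 (97.1 to 267), both under the minimum of 50 cells.

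Consequently the leading stromal ligand was Vegfd in WT and Vegfa in the obese groups. Vegfd made up 66.8% (65.8 to 67.8) of the UMIs of Vegfd and Vegfa in WT stroma, against 35.7% in 8-week db/db, 35.2% in 16-week db/db and 43.5% in HFD. In single WT stromal cells thinned to 1000 UMIs, the pair was found together in 0.723% (0.488 to 1.03) of cells, less than the 1.22% given by the product of the 2 separate shares. In 8-week db/db the joint share and the product were both 0.278%.

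**Figure D2:**
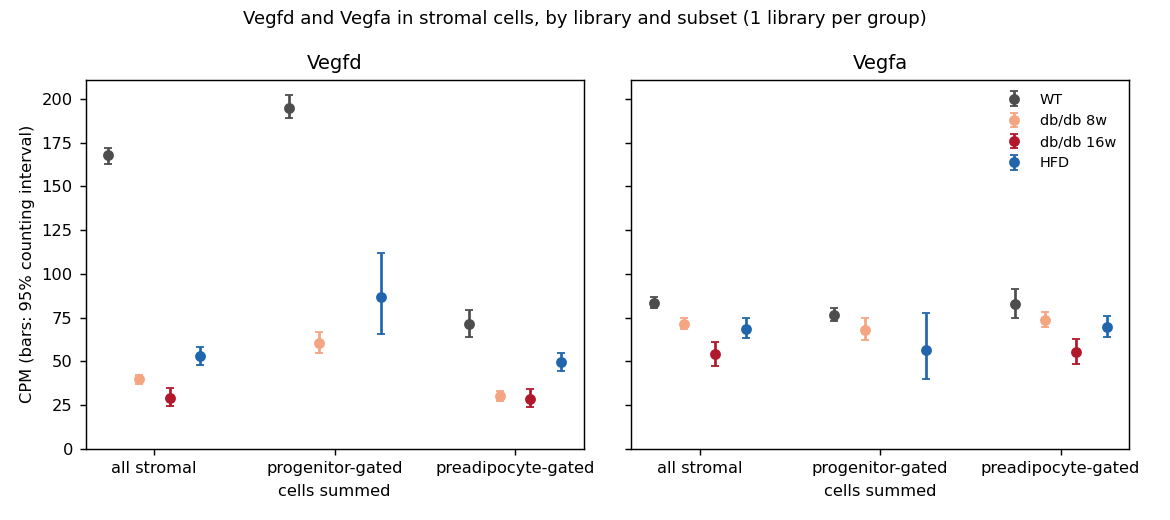
Vegfd and Vegfa level (CPM, y axis) in all stromal, progenitor-gated and preadipocyte-gated cells (x axis) of each library; bars are 95% counting intervals. The WT points for Vegfd stand above all obese points in each set of cells, whereas the Vegfa points lie between 53.9 and 83.5 CPM in all stromal cells.

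The other ligands were lower in stroma. Vegfb, which binds VEGFR1, lies at chr19:6982473-6987651 (minus strand, ENSMUSG00000024962) and measured 30.6, 25.4, 38.2 and 33.5 CPM in WT, 8-week db/db, 16-week db/db and HFD. Its log2 ratios to WT were -0.27, 0.32 and 0.13 (-0.06 to 0.32), so the direction was not shared. Vegfc, the other ligand of VEGFR3 (chr8:54077606-54187096, plus strand, ENSMUSG00000031520), measured 10.8, 8.84, 6.14 and 9.72 CPM from 373, 241, 27 and 82 UMIs. In preadipocytes Vegfc was 20.8 CPM in WT and 8.61, 6.13 and 10.4 in the obese groups (log2 ratios -1.27, -1.77 and -1.0), and in progenitors it was 7.78 CPM in WT, 6.75 in 8-week db/db and 1.52 in HFD (-2.35, -7.67 to 0.15, from 1 UMI).

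Pgf, placental growth factor (chr12:85166635-85177790, minus strand, ENSMUSG00000004791), had most of its UMIs in stroma in some libraries and in endothelium in those with more endothelial cells. Stromal Pgf gave 212 UMIs in WT (6.13 CPM), 236 in 8-week db/db (8.65 CPM), 0 in 16-week db/db (where 3 counts would be 0.682 CPM) and 13 in HFD (1.54 CPM). WT and 8-week db/db stroma held 97.2% and 82.8% of all Pgf UMIs, and HFD stroma held 7.47%. Stroma held 76.8%, 51.0% and 25.9% of the UMIs of all genes in these libraries. Progenitors carried it, with 7.78 CPM in WT, 22.9 in 8-week db/db (log2 ratio 1.56, 1.23 to 1.89) and 15.2 in HFD (0.97, -0.12 to 1.89), against at most 1.88 CPM in preadipocytes of any library. In 16-week db/db and HFD, 60.3% and 69.0% of Pgf UMIs were endothelial, where Pgf reached 23.2 and 20.6 CPM. Endothelium held 6.16% and 17.8% of all UMIs there, against 0.0594% and 0.342% in WT and 8-week db/db. WT and 8-week db/db endothelium gave 0 and 1 Pgf UMIs, so its level there could hardly be measured.

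In stromal cells, 2 of the 6 members that passed the filter on low values were past 2-fold in 8-week db/db (Vegfd, Nrp2), where 6.96% of all tested genes were. The count was 3 of 7 in 16-week db/db (Vegfd, Flt1, Nrp2; 28.1% of all genes) and 5 of 8 in HFD (Vegfd, Kdr, Flt1, Nrp1, Nrp2; 17.7%). Between the obese groups, 1 of 6 (Flt1) was past 2-fold in 16-week db/db against 8-week db/db (16.1%) and 2 of 7 (Kdr, Flt1) in 16-week db/db against HFD (20.2%). WT stroma held Nrp2, Kdr and Flt1 at 2.60, 1.85 and 1.39 CPM, so against WT they passed the filter only through the obese group. Reaching its 10 CPM there put them past 2-fold by itself, so these calls add nothing to the filter. Shares above the background rest on few genes here and carry no test.

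Macrophages were the second source of Vegfa, holding 8.02% of its UMIs in WT, 27.3% in 8-week db/db, 39.5% in 16-week db/db and 33.0% in HFD, against 88.4%, 61.4%, 49.6% and 40.2% in stroma. Macrophages held 18.8%, 37.7%, 68.0% and 39.2% of all UMIs, so in every library their share of Vegfa was below their share of RNA. Summed over all macrophages, Vegfa was 30.9 CPM (27.3 to 34.9) in WT, 43.0 (40.1 to 45.9) in 8-week db/db, 10.5 (9.02 to 12.1) in 16-week db/db and 37.3 (34.0 to 40.8) in HFD. The 16-week db/db interval lay below the others, with a log2 ratio of -1.56 (-1.84 to -1.29) to WT, -2.04 to 8-week db/db and -1.83 to HFD. The ratio to WT was within 2-fold, however, at -0.82 as the mean of single-cell CPM and -0.53 after thinning, where 1.42% (0.844 to 2.24) of WT and 1.15% (0.760 to 1.67) of 16-week db/db macrophages had a Vegfa UMI. The ratios of 8-week db/db and HFD to WT were 0.47 (0.27 to 0.68) and 0.27 (0.05 to 0.49). Both were larger after thinning and as means of single-cell CPM, as listed with the other settings below. After thinning, 2.75% (2.19 to 3.40) of 8-week db/db and 2.68% (1.98 to 3.55) of HFD macrophages had a Vegfa UMI. In WT these UMIs were concentrated: 262 UMIs came from 94 of 1288 cells, the 10 richest cells held 50.8% of them, and 1 cell held 30. In the other libraries the 10 richest macrophages held 12.2% to 22.8%.

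Lipid-associated macrophages (LAMs), which handle lipid in obese fat, were gated on Trem2, Gpnmb, Cd9, Spp1, Lpl, Fabp5, Atp6v0d2 and Mmp12, and perivascular macrophages (PVMs) on Lyve1, Folr2, Cd163, Timd4, Cd209f and Cbr2. LAMs were 91 cells in WT (7.07% of macrophages), 1378 in 8-week db/db (42.7%), 1933 in 16-week db/db (79.4%) and 1594 in HFD (90.9%), and PVMs were 1003, 1260, 229 and 14 cells. In LAMs, Vegfa measured 156 CPM (131 to 183) in WT, 65.8 (61.2 to 70.6) in 8-week db/db, 11.4 (9.83 to 13.2) in 16-week db/db and 38.8 (35.4 to 42.5) in HFD. No interval overlapped another, and all obese groups were below WT. These intervals take UMIs as independent, whereas the 10 richest macrophages of WT held 50.8% of its macrophage Vegfa UMIs, so they are too narrow there. The log2 ratios to WT were -1.24 (-1.5 to -0.98), -3.77 (-4.09 to -3.45) and -2.0 (-2.28 to -1.73). Thinning each cell to 1000 UMIs gave -1.36, -3.90 and -2.06, and averaging the CPM of single cells gave -0.85, -3.08 and -1.64. The share of thinned LAMs with a Vegfa UMI was 9.89% (4.62 to 17.9) in WT, 5.89% (4.66 to 7.33) in 8-week db/db, 0.996% (0.601 to 1.55) in 16-week db/db and 3.70% (2.83 to 4.75) in HFD, so the WT and 8-week db/db intervals overlapped on this measure.

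Vegfa was higher in LAMs than in PVMs where both could be measured. PVMs held 13.7 CPM (11.0 to 16.9) in WT and 5.97 (4.13 to 8.34) in 8-week db/db. The 229 PVMs of 16-week db/db held 0 UMIs, with an interval that reached 4.59 CPM. LAMs exceeded PVMs by a log2 ratio of 3.5 (3.11 to 3.90) in WT and 3.46 (2.97 to 4.00) in 8-week db/db. The larger share of LAMs in the obese groups and the lower Vegfa within them therefore ran in opposite directions in the sum over all macrophages. With the subsets weighted as in WT, the ratio for all macrophages was -1.06 in 8-week db/db (14.9 CPM) in place of 0.47, and -2.82 in 16-week db/db (4.37 CPM) in place of -1.56. The 16-week db/db value takes the PVMs at 3 counts (3.73 CPM), a set floor and no limit of the interval. HFD had too few PVMs for this weighting. The WT value rests on 91 cells. A narrower gate without Lpl, Fabp5 and Cd9 left 27 WT cells at 287 CPM and gave 73.8, 11.5 and 40.4 CPM in 912, 1659 and 1228 cells of 8-week db/db, 16-week db/db and HFD.

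A list of 13 immediate early genes such as Fos, Jun and Egr1, which are readily induced during tissue digestion, moved with macrophage Vegfa in part. It summed to 36439.7 CPM in WT macrophages, 16806 in 8-week db/db, 5057 in 16-week db/db and 7134 in HFD, and its part in the Vegfa result was not tested. Of the genes known to respond to hypoxia, 4 of 12 measurable were over 2-fold higher and 0 lower in 8-week db/db macrophages (median log2 ratio 0.58, all genes 0.02), 6 of 11 higher and 3 lower in 16-week db/db (1.24, all genes -0.13), and 5 of 12 higher and 2 lower in HFD (0.61, all genes 0.18). The glycolytic Ldha was 107 CPM in WT and 278, 631 and 325 in the obese groups, while Pfkfb3, a regulator of glycolysis, was 169.7 CPM in WT and 124, 14.3 and 16.9 in the obese groups. The vasodilator peptide Adm was 12.2 CPM in WT and 0.664 in 16-week db/db (log2 ratio -4.19), and the collagen hydroxylase P4ha1 was 76.4 and 14.7 (-2.38). Members of the list thus ran both ways in 16-week db/db and HFD, and a part of hypoxia in macrophage Vegfa was not tested. Of VEGF-responsive and tip-cell genes in macrophages, 1 of 5 was higher and 0 lower in 8-week db/db (median log2 ratio -0.66, all genes 0.02), 0 and 4 in 16-week db/db (-3.09, all genes -0.13), and 0 and 1 in HFD (-0.09, all genes 0.18). That list includes the early-response genes Nr4a1 and Egr3, and the part of such a response in its counts was not tested. The shares of all genes past 2-fold either way in these comparisons were 11.3%, 46.2% and 25.0%. Of neuropilin partners, 0 of 3 were past 2-fold in 8-week db/db, 1 of 3 was lower in 16-week db/db, and 2 of 5 were higher and 1 lower in HFD, with medians of -0.48, -0.93 and 0.91.

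**Figure D3:**
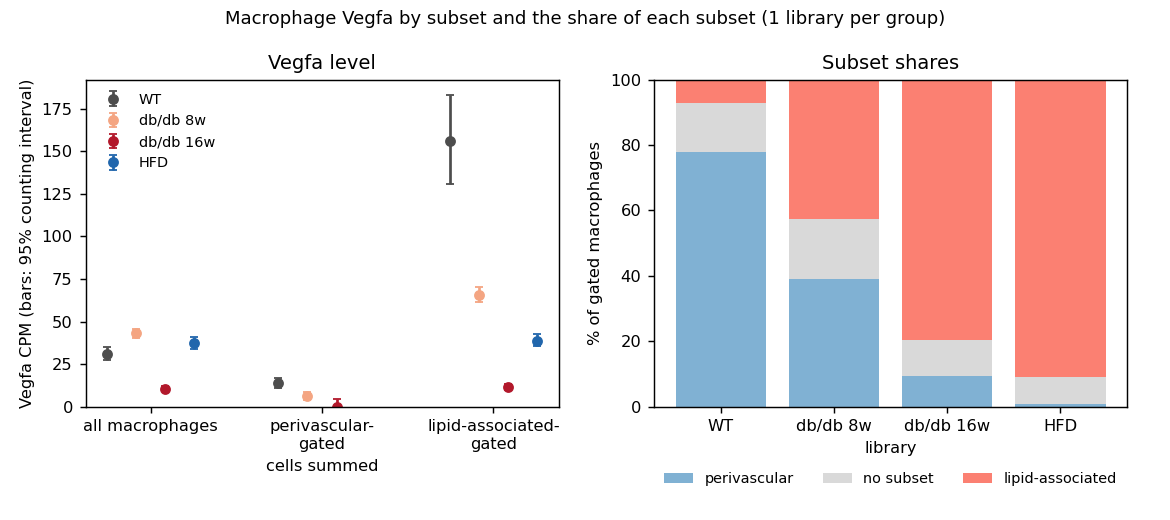
Left, Vegfa level (CPM) in all macrophages, PVM-gated and LAM-gated cells of each library, with bars for 95% counting intervals (no HFD point for PVMs, 14 cells); right, the share of macrophages (%) gated as PVM, LAM or neither. LAM Vegfa ran from 156 CPM in WT to 11.4 in 16-week db/db, while LAMs grew from 7.07% to 79.4% of macrophages.

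The other ligands were low or even in macrophages. Vegfb measured 19.7, 22.1, 26.4 and 28.3 CPM, so that Vegfa took 61.1%, 66.0%, 28.4% (25.0 to 32.0) and 56.9% of the UMIs of the pair. Vegfb was thus the more abundant of the pair in 16-week db/db alone of the 4 macrophage groups. Vegfc gave 1, 3, 0 and 12 UMIs, and Pgf stayed at or below 1.79 CPM. Macrophages of 8-week db/db had 0 of 4 measurable members past 2-fold against WT (11.3% of all genes were), 16-week db/db had 2 of 4 (Nrp1, and Vegfa, which was within 2-fold after thinning; 46.2%) and HFD had 2 of 6 (Kdr, Flt1; 25.0%). Against 8-week db/db, 16-week db/db had 1 of 4 (Vegfa; 28.0%), and against HFD it had 5 of 6 (Vegfa, Kdr, Flt1, Nrp1, Nrp2; 29.6%). Macrophage Kdr and Flt1 passed the filter only through HFD, being 1.30 and 2.24 CPM in WT and 4.15 and 3.38 in 16-week db/db. Passing it put them past 2-fold by itself.

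Among receptors, Kdr and Flt1 marked the endothelium of each library, and their order differed between libraries. Kdr lies at chr5:75932827-75978458 and Flt1 at chr5:147561604-147726011, both on the minus strand (GRCm38, ENSMUSG00000062960 and ENSMUSG00000029648). Their upstream sequences, chr5:75978459-75978705 and chr5:147726012-147726261 on the minus strand, are given in the same way because the balance of these 2 genes differed between libraries.
Kdr: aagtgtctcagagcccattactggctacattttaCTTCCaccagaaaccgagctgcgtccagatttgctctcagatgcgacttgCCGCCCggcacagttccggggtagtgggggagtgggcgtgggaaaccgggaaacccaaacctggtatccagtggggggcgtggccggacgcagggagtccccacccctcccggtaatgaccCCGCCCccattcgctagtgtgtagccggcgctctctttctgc
Flt1: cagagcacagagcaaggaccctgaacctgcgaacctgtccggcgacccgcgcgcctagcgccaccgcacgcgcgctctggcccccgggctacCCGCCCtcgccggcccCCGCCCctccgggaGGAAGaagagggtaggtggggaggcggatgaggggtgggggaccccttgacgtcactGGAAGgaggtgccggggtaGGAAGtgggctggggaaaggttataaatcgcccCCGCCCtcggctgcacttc
GGAAG occurred once for Kdr and 3 times for Flt1, GGGCGG 2 and 3 times, and ACGTG in neither.

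In endothelial cells, Kdr measured 957 CPM (820.4 to 1109.6) in 8-week db/db, 1027 (978 to 1077) in 16-week db/db and 854 (830.2 to 878) in HFD, and the 18 WT cells gave 63 UMIs. Flt1 measured 1558 CPM (1383 to 1750.2), 679 (639.6 to 720.1) and 1203 (1175 to 1231), with 86 UMIs in WT. Kdr therefore differed little, with log2 ratios of 0.10 (-0.12 to 0.33) for 16-week db/db over 8-week db/db and 0.27 (0.19 to 0.35) over HFD. Flt1 was lower in 16-week db/db, by log2 ratios of -1.20 (-1.39 to -1.01) and -0.82 (-0.92 to -0.73). The median log2 ratio of all genes was -0.33 and -0.30 in these comparisons, so Kdr stood above it and Flt1 below it.

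The balance of the pair within cells needs no scaling between libraries. Flt1 took 57.7% (49.4 to 65.8) of Flt1 and Kdr UMIs in WT, 62.0% (57.3 to 66.4) in 8-week db/db, 39.8% (38.0 to 41.7) in 16-week db/db and 58.5% (57.6 to 59.4) in HFD. Thus 16-week db/db was the library in which Kdr exceeded Flt1, and its interval overlapped none of the others. Endothelium gated as capillary gave 56.1%, 62.1%, 39.2% and 57.7%, and 16-week db/db endothelium outside every subset gate gave 53.3% (44.6 to 61.9). After thinning, Kdr and Flt1 were found together in 47.8%, 27.1% and 37.5% of endothelial cells of 8-week db/db, 16-week db/db and HFD, beside products of the separate shares of 45.1%, 24.4% and 37.5%. In 16-week db/db, 595 of 1255 endothelial cells were too shallow for that thinning (median 1037 UMIs, against 1808 and 4347).

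Flt4 (chr11:49609263-49652739, plus strand, ENSMUSG00000020357), the receptor of VEGF-C and VEGF-D, measured 137 CPM (88.5 to 202) in 8-week db/db, 64.8 (53.0 to 78.4) in 16-week db/db and 23.7 (19.9 to 28.0) in HFD. In 8-week db/db, 19 of the 25 Flt4 UMIs came from 3 cells gated as lymphatic, and within capillary-gated cells Flt4 was 35.4 CPM (11.5 to 82.5) against 63.0 in 16-week db/db (log2 ratio 0.83, -0.44 to 2.49). The order of the db/db ages over all endothelium also reversed under other settings (log2 ratio -1.08, 0.70 with predicted doublets removed and 0.12 as the mean of single-cell CPM). Most of the HFD Flt4 was not in cells rich in lymphatic markers. There, 125 endothelial cells had a Flt4 UMI and these held 142 CPM of the lymphatic marker list (Prox1, Mmrn1, Reln, Ccl21a) against 5.57 CPM in the rest. Without the 10 cells richest in lymphatic markers, however, 121 Flt4-positive cells remained with 129 of the 138 Flt4 UMIs (22.4 CPM), and their lymphatic list was at 3.90 CPM against 3.80. In 16-week db/db, the 100 Flt4-positive cells held 13.4 CPM of the lymphatic list against 10.8. The 3 cells gated as lymphatic in 8-week db/db and the 3 in HFD held 776 and 627 CPM of Flt4, Kdr at 531 and 1176 CPM and Nrp2 at 572 and 549 CPM, with no UMI of Flt1 or Nrp1.

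Endothelial ligands were low but uneven. Vegfc was 17.5 CPM in HFD endothelium (102 UMIs) and 2.44 in 16-week db/db (4 UMIs), a log2 ratio of -2.84 for 16-week db/db over HFD, and 27.3 CPM from 5 UMIs in 8-week db/db. In HFD, endothelium held 41.5% of Vegfc UMIs and stroma 33.3%, and endothelial Vegfc was 180.4% (147 to 219) of its stromal level, while stromal markers stood at 1.58% and Vegfd at 4.24% of theirs. The 81 HFD cells with a Vegfc UMI held 858 CPM of the arterial list (Gja5, Gja4, Sox17, Hey1, Bmx, Stmn2) against 331 in the rest (log2 ratio 1.38, 1.21 to 1.54). Vegfa and Vegfb were 30.8 and 31.5 CPM in HFD endothelium and 7.94 and 7.33 in 16-week db/db (-1.95 and -2.10). HFD endothelium also held 327 CPM of the brown adipocyte list against 6.72 in 16-week db/db, and the part of that RNA in these ligands was not tested.

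Endothelial Pgf stood in different company. It was 23.2 CPM in 16-week db/db and 20.6 in HFD, a log2 ratio of 0.17 (-0.40 to 0.71), and 1 UMI in 8-week db/db. In HFD, the 61 cells with a Pgf UMI held 184 CPM of Apln, the apelin ligand of tip cells at the front of vessel sprouts, against 18.4 CPM in other endothelium (log2 ratio 3.32, 2.88 to 3.77). Esm1, another tip-cell gene, was at 18.9 CPM against 0.742, from 8 and 4 UMIs, and the arterial list was lower, at 208 CPM against 381. The whole list of VEGF-responsive and tip-cell genes, which includes Apln and Esm1, differed far less. It summed to 1474 CPM against 1205 (log2 ratio 0.29, 0.17 to 0.41). In 16-week db/db, the 27 Pgf-positive cells had no Apln UMI and all other endothelium had 4, and the arterial list was 549 CPM against 371 (0.57, -0.14 to 1.19).

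The neuropilins differed between libraries in each lineage. Nrp1 (chr8:128358604-128503363, plus strand, ENSMUSG00000025810), a co-receptor of VEGFR2, was 579.6, 259 and 727 CPM in endothelium of 8-week db/db, 16-week db/db and HFD, and Nrp2 (chr1:62703285-62818695, plus strand, ENSMUSG00000025969), a co-receptor of VEGFR3, was 186, 69.7 and 301 CPM. Both were lowest in 16-week db/db, with log2 ratios to HFD of -1.49 (-1.64 to -1.35) and -2.11 (-2.40 to -1.84), and to 8-week db/db of -1.16 and -1.42. Nrp1 overlaps the annotated Mir1903 on its own strand, and Nrp2 overlaps Gm37121 on its own strand and Gm29083 on the other. In HFD, the 724 endothelial cells with a Nrp2 UMI held less of the arterial list than the rest (266 against 589 CPM, log2 ratio -1.14) and more of the venous list of Vwf, Nr2f2, Selp, Ackr1, Lrg1 and Vcam1 (226 against 164, 0.46). The 107 such cells of 16-week db/db had the same order, with the arterial list at 281 against 387 CPM and the venous list at 275 against 139. In endothelium, 5 of 7 measurable members were past 2-fold in 16-week db/db against 8-week db/db (Pgf higher, Flt1, Flt4, Nrp1 and Nrp2 lower; 35.2% of all genes). Pgf rests on 1 UMI in 8-week db/db (log2 ratio 2.09, -0.48 to 7.43), and Flt4 was not lower within capillary cells. Against HFD the count was 6 of 9 (Flt4 higher, Vegfa, Vegfb, Vegfc, Nrp1 and Nrp2 lower; 29.0%). Vegfc, at 2.44 CPM in 16-week db/db, passed the filter only through HFD, which put it past 2-fold by itself.

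Macrophages held 84.4%, 79.1%, 80.8% and 40.7% of Nrp2 UMIs in WT, 8-week db/db, 16-week db/db and HFD. Their shares of all UMIs were 18.8%, 37.7%, 68.0% and 39.2%, so the Nrp2 share was near the RNA share in HFD. Endothelium had a higher Nrp2 level than macrophages in 8-week db/db (186 against 145 CPM) and HFD (301 against 153). In macrophages, Nrp2 measured 103, 145, 73.4 and 153 CPM, and Nrp1 measured 253, 168, 87.4 and 191. Nrp1 was below WT in all obese groups, with log2 ratios of -0.59, -1.53 (-1.63 to -1.44) and -0.41, whereas Nrp2 was above WT in 8-week db/db and HFD (0.49 and 0.57) and below it in 16-week db/db (-0.49). Nrp1 took 71.0% (69.4 to 72.6) of the pair's UMIs in WT macrophages and 53.7%, 54.3% and 55.5% in the obese groups.

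The subset shares bore on Nrp1 directly. PVMs held more Nrp1 than LAMs, at 289.6 against 109 CPM in WT, 269.6 against 113 in 8-week db/db and 218 against 77.2 in 16-week db/db. With subsets weighted as in WT, the macrophage Nrp1 ratio was -0.07 in 8-week db/db and -0.38 in 16-week db/db, in place of -0.59 and -1.53. Nrp2 was higher within LAMs of 8-week db/db (138 CPM) and HFD (155) than within those of WT (65.5), with log2 ratios of 1.08 and 1.24, and measured 72.2 CPM in 16-week db/db LAMs (0.14).

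In stroma, Nrp1 was higher than WT in every obese group, at 102, 179, 163 and 229 CPM (log2 ratios 0.81, 0.68 and 1.16). Preadipocytes held 205 CPM and progenitors 82.1 in WT, and within preadipocytes the ratios were 0.24, -0.30 and 0.25. Weighting the subsets as in WT gave 0.17 in 8-week db/db and 0.34 in HFD. Stromal Nrp2 was 2.60 CPM in WT and 11.6, 22.3 and 28.5 in the obese groups, and it was above WT within preadipocytes too (5.42, 14.4, 22.1 and 30.2 CPM). The 11 macrophage markers summed to 94.3, 214, 116 and 294 CPM in the same stroma, and the 9 endothelial markers, of which 8 were detected in WT, to 11.8, 22.2, 71.9 and 203 CPM. Both lists were higher than WT in every obese group, and their part in stromal Nrp2 was not tested. Plxnd1, a plexin that pairs with neuropilins, followed the same order in stroma, at 12.9, 24.8, 43.4 and 46.1 CPM.

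Kdr and Flt1 were also counted in stroma and macrophages, at levels that differed between libraries. Stromal Kdr was 1.85, 8.32, 6.59 and 29.5 CPM and stromal Flt1 1.39, 7.85, 18.0 and 51.3 CPM in WT, 8-week db/db, 16-week db/db and HFD. Macrophage Kdr was 1.30, 5.01, 4.15 and 25.8 CPM and macrophage Flt1 2.24, 5.61, 3.38 and 36.5 CPM. In HFD macrophages, these were 3.02% (2.70 to 3.36) and 3.03% (2.77 to 3.32) of the endothelial levels, and the 9 endothelial marker genes were at 2.95% (2.83 to 3.08) of theirs. In HFD stroma the values were 3.46% for Kdr, 4.27% (3.88 to 4.69) for Flt1 and 3.51% (3.34 to 3.68) for the markers. Kdr and Flt1 thus stood near the level of the endothelial markers in HFD cells of other lineages. The 9 markers also set the gates, which favoured high values in endothelium and low ones in other lineages. Kdr and Flt1 were not in the gates, so the list is an uneven yardstick for them. In 16-week db/db stroma, Flt1 was at 2.65% (2.09 to 3.3) against 0.990% for the markers and 0.642% for Kdr.

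**Figure D4:**
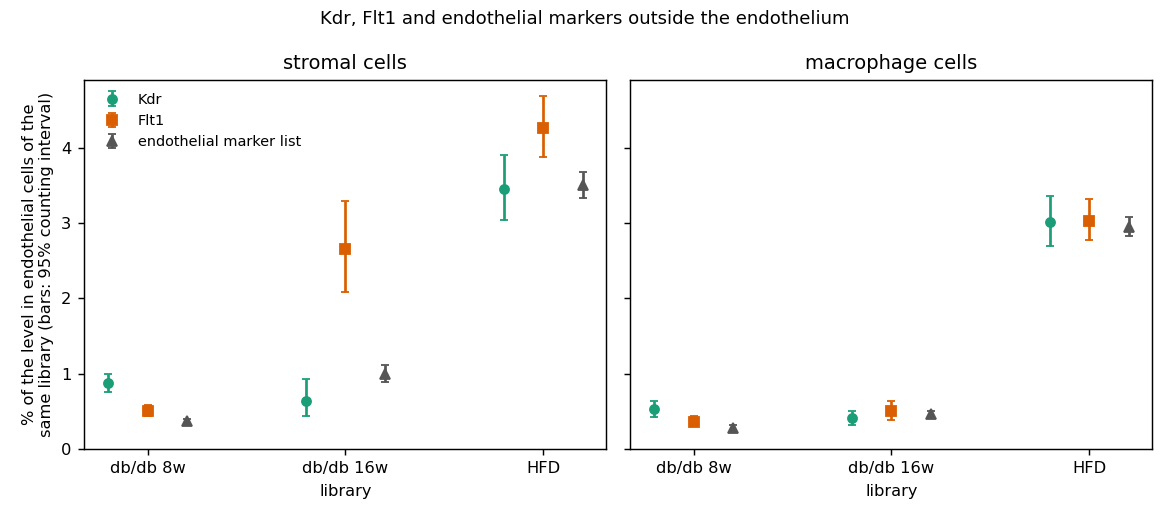
Kdr, Flt1 and the summed endothelial marker list in stromal cells and macrophages, as % of their level in endothelial cells of the same library. The marker list also set the gates, unlike Kdr and Flt1. In HFD all 3 lie between 2.95% and 4.27%, and in 8-week db/db stroma Kdr is at 0.870% against 0.371% for the markers.

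Stromal progenitors carried Kdr in another ratio to Flt1 than endothelium did. Progenitors held 44 Kdr UMIs in WT (2.22 CPM) and 128 in 8-week db/db (18.8 CPM, log2 ratio 3.08), and Flt1 was 0.555 and 4.26 CPM. Flt1 took 20% (10.4 to 33.0) and 18.5% (12.7 to 25.4) of the pair's UMIs there, against 57.7% and 62.0% in endothelium of those libraries, whereas HFD progenitors were at 63.9% (46.2 to 79.2). Of 103 8-week db/db progenitors with a Kdr UMI, 86 (83.5%) had no UMI of any endothelial marker, against 90.5% among progenitors without Kdr. In WT, 34 of 36 (94.4%) had none, against 92.7%. The stromal gate itself limited the endothelial marker UMIs of all these cells.

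Cell types with few cells added single values. The 102 neutrophils of 8-week db/db held 22 Vegfa UMIs, or 121 CPM (75.9 to 183), above its 71.3 CPM in stroma of that library. Mural cells, which wrap vessels, numbered 35 in 16-week db/db and 31 in HFD, where they held 692 and 400.3 CPM of Nrp1, and HFD mural cells also held 681 CPM of Flt1 and 238 of Kdr. These mural groups were below the minimum of 50 cells.

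Gene lists around the pathway were described by counts, which rest on few genes. Of all genes tested in stroma, 6.96%, 28.1% and 17.7% were past 2-fold either way against WT in 8-week db/db, 16-week db/db and HFD. Among genes known to respond to VEGF or to mark tip cells, 3 of 6 measurable were over 2-fold higher and 1 lower in 8-week db/db stroma (median log2 ratio 0.69, all genes 0.02), 3 of 7 higher and 3 lower in 16-week db/db (-0.45, all genes -0.02), and 4 of 7 higher and 2 lower in HFD (1.34, all genes 0.07). In 16-week db/db the furthest from WT were the netrin receptor Unc5b (15 against 1.33 CPM), the endothelial diaphragm gene Plvap (75.5 against 9.28), the basement membrane gene Nid2 (149.9 against 27.3) and the early-response gene Nr4a1 (51.8 against 369). Endothelial markers in the same stroma summed to 71.9 against 11.8 CPM, and preadipocyte-gated cells were 94.9% against 14.1% of it. The part of either in these values was not tested. Of neuropilin partners in stroma, 2 of 8 were lower in 8-week db/db, 5 of 8 in 16-week db/db and 4 of 8 in HFD, with 0, 1 and 1 higher and medians of -0.40, -3.23 and -0.98. Sema3e, a semaphorin ligand of Plxnd1, was 137 CPM in WT stroma and 51.5, 1.82 and 12.8 in the obese groups, and Sema3c, a neuropilin ligand, was 537 and 410.3, 18.4 and 208. Both semaphorins were thus below WT in the 3 obese groups in the sum over all stroma. Hypoxia genes in stroma had 0 of 11 past 2-fold in 8-week db/db, 2 higher and 3 lower of 11 in 16-week db/db and 1 higher and 3 lower of 11 in HFD. Of the angiopoietin and apelin axes, 0 of 3 were higher and 1, 2 and 1 lower. Tek, the angiopoietin receptor, was at 159 CPM in WT stroma and 77.3, 17.5 and 53.6 in the obese groups. Progenitor-gated cells were 59.8% of stroma in WT and 25.0%, 2.25% and 9.80% in those groups. Sema3e, Sema3c and Tek were not measured within subsets here, and the part of stromal make-up in their values was not tested.

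In endothelium of 16-week db/db against HFD, 29.0% of all genes were past 2-fold either way. There, 2 of 14 tip-cell and VEGF-responsive genes were higher and 4 lower (median 0.02, all genes -0.30). Dll4, a Notch ligand of tip and arterial cells, was 188 CPM against 59.3, while Apln was 2.44 against 30.4, the early-response gene Egr3 6.11 against 293 and Nid2 20.2 against 44.7. Of hypoxia genes, 2 of 12 were higher and 2 lower (-0.59), including Bnip3, a mitophagy receptor, at 156 against 38.5 CPM. Of the neuropilin partners 0 of 6 were past 2-fold, of the angiopoietin and apelin genes 2 of 5 were lower, and all 5 brown adipocyte genes were lower (-4.55). Against 8-week db/db, 1 of 13 tip-cell genes was higher and 3 lower, 3 of 11 hypoxia genes were higher and 1 lower, 2 of 6 neuropilin partners were lower and 2 of 4 angiopoietin and apelin genes were higher, with medians of -0.36, 0.54, -0.49 and 0.48 beside -0.33 over all genes, of which 35.2% were past 2-fold.

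The profile of each gene was compared with all others over 14 profiles of a lineage in a library, by Pearson's r of log2(CPM + 10). These profiles share libraries and depth, so r is a description. Vegfd ran closest to Prkg1 (r = 0.990), Il33 (0.983) and Inmt (0.981), and Vegfa to Dram1 (0.923), Wbp1l (0.902) and Galm (0.895). Vegfb ran with Acat1 (0.927), Clybl (0.898) and Pdha1 (0.883), which encode mitochondrial enzymes. Vegfc ran with Qser1 (0.969), Pcdhga12 (0.956) and Akap1 (0.953), and Pgf with Lmtk2 (0.871), Ttc7b (0.869) and Sh3bp5 (0.854). Receptors had closer neighbours than ligands other than Vegfd: Kdr ran with Tcf15 (0.994), Adgrl4 (0.993) and C1qtnf9 (0.992), Flt1 with Ptprb (0.997), Rbp7 (0.995) and Cyyr1 (0.993), and Flt4 with Tead4 (0.998), Vsig2 (0.998) and Itga3 (0.995). Nrp1 ran with Kctd12b (0.960), Ldlrad3 (0.938) and Ctnnd1 (0.936), and Nrp2 with Plxnd1 (0.972), Arhgap18 (0.945) and Trim25 (0.938).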

How the data were processed

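SVF cells had been run on 10x Genomics 3-prime chemistry. Per the labels and the study's methods, the authors aligned and counted reads with Cell Ranger 7.1.0 on mm10 (the deposited file headers name 6.0.0), and the deposited matrices hold raw UMI counts per gene and barcode, before the authors' filter, subsampling and integration. Here, cells were kept within the study's limits of 250 to 6000 genes, 500 to 30000 UMIs and 15% mitochondrial reads. A cell entered 1 of 10 lineages with at least 3 UMIs from at least 2 markers and 3 times the marker UMIs of every other lineage. Subsets needed 2 UMIs, which could all come from 1 marker, and the same dominance. Counts were summed per lineage and library and given as CPM with exact Poisson 95% intervals, with exact conditional binomial intervals for ratios and Clopper-Pearson intervals for shares. All cover counting error only, since cells are not replicates. A ratio past 2-fold was counted where a gene had at least 10 CPM in either library and at least 10 UMIs over both.

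Shares of cells were thinned to 1000 UMIs per cell. No doublets were removed in the reported values. An alternative removed cells predicted by Scrublet (scanpy 1.11.5), at 5.57% to 15.4% of cells taken by the rate expected from barcode number, since its automatic threshold marked 0 cells in 8-week db/db. Other alternatives were TMM scaling (edgeR 4.0.16, R 4.3.3), other gates, other mitochondrial limits, CPM without mitochondrial genes, 10 CPM added, means of single-cell CPM and no filter. Scripts ran in Python 3.11.15 with numpy 2.4.6, scipy 1.17.1 and pandas 2.3.3, and were tested on simulated data. Named genes were the 10 members, the 3 genes most alike in profile to each, and up to 4 genes per pathway list with the largest ratios in the lineage described. Plxnd1 and Esm1 were added outside that rule after their values were seen. Members and lists were chosen with earlier results of these data known. The early-response list, the weighting of subsets, the narrower LAM gate, the thinned subset values and the lymphatic check of Flt4 were added after seeing the data.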

Additional observations from a re-analysis of the deposited data

Results flagged for a closer look

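Several members moved in opposite directions against WT in different obese groups. These differences between groups were not tested, since each group was 1 library. Macrophage Vegfa had a log2 ratio of 0.47 in 8-week db/db and 0.27 in HFD but -1.56 in 16-week db/db, and macrophage Nrp2 had 0.49 and 0.57 but -0.49 in the same groups. Within LAMs, Vegfa was below WT in all obese groups (-1.24, -3.77 and -2.0), and with subsets weighted as in WT the ratio in 8-week db/db was -1.06. Stromal Vegfb had -0.27 in 8-week db/db and 0.32 in 16-week db/db.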

How the results depend on the processing

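No paired analysis was possible because each group had 1 library. Of 34 ratios past 2-fold, 359 of 361 recomputed values kept their sign and 336 stayed past 2-fold. Reversed was endothelial Flt4 in 16-week db/db over 8-week db/db (-1.08), at 0.70 with predicted doublets removed and 0.12 as the mean of single-cell CPM. Adding 10 CPM gave stromal Vegfd -1.84 in 8-week db/db, -2.18 in 16-week db/db and -1.5 in HFD, and macrophage Vegfa -1.0 in 16-week db/db. Weighting subsets as in WT gave Vegfd -1.75 in 8-week db/db and -1.22 in HFD, and macrophage Vegfa -1.06 in 8-week db/db and -2.82 in 16-week db/db, where PVMs had 0 UMIs and were taken at 3 counts. TMM gave Vegfd -1.91 in HFD, macrophage Vegfa -1.26 in 16-week db/db, and endothelial Kdr 0.58 and Flt1 -0.51 in 16-week db/db over HFD. As means of single-cell CPM, macrophage Vegfa was 0.83, -0.82 and 0.81 in 8-week db/db, 16-week db/db and HFD, Kdr 0.44 and Flt1 -0.67. Thinned, macrophage Vegfa was 1.0, -0.53 and 0.81, and Flt1 -0.92. Kdr was 0.42 with no mitochondrial limit and 0.13 without mitochondrial genes, and Flt1 -0.96. The HFD Flt1 share (58.5%) was 56.8% with dominance of 10 times, 56.6% under a 10% mitochondrial limit, 59.6% with no limit, and 59.4% as a mean or thinned. Members past 2-fold in 8-week db/db against WT (2 over the lineages) were 1 with dominance of 10 times or doublets removed, 4 as means, 9 with no filter and 4 at 1.5-fold. For 16-week db/db against WT (5) they were 10 with no filter and 8 at 1.5-fold, and for HFD (7) 12 with no filter. For 16-week db/db against 8-week db/db (7) they were 4 with dominance of 10 times or doublets removed, 3 under the 10% limit or TMM, and 11 at 1.5-fold. TMM moved the median ratio of all genes from -0.33 to 0.16 and from -0.30 to 0.01 in the endothelial comparisons, from -0.13 to 0.17 in macrophages of 16-week db/db, and from 0.07 to -0.16 in HFD stroma. The cause of these shifts was not tested. Depth limited values of a few UMIs, and animals, pools and libraries cannot be told apart from the groups.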

Other observations

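Among cell types outside the comparisons, dendritic cells held 68.0 CPM of Vegfa in WT (12 UMIs) and 47.6 in 8-week db/db, and 79.3 and 62.3 CPM of Nrp2 in 8-week db/db and HFD. T and NK cells held 84.4 CPM of Nrp1 in WT and 44.4 in 8-week db/db. HFD mural cells held 68.1 CPM of Vegfc from 8 UMIs. Except for T and NK cells of 8-week db/db, these groups were under 50 cells.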
